A study of Mus musculus with 14 samples.

Results

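The Nkx genes described here are 6 listed members of the NK homeobox family, Nkx2-1, Nkx2-2, Nkx2-3, Nkx2-9, Nkx6-1 and Nkx6-2, each looked up by its Entrez identifier. Of the 6 members, 5 had a row among the 15108 genes of the authors' deposited table for day 5 (D5) and the same 5 among the 15744 genes for day 10 (D10). Nkx2-1 (Entrez 21869) had no row to read on either day, so its expression is not described, while its promoter and neighbours are. The data are polyadenylated RNA from mouse embryonic stem cells differentiated in culture, in the GLI1-FTA line of the A2Lox.cre strain. All groups share that line, and the induced groups received doxycycline at 500 ng/ml for 48 h, from day 3 to day 5, to overexpress GLI1. There were 4 induced and 4 untreated control samples at D5, labelled neural progenitor cells, and 3 induced and 3 untreated control samples at D10, labelled immature neurons, harvested 5 days after washout. Because controls were left without the drug, effects of doxycycline and of GLI1 cannot be told apart. The labels name 1 line and do not say whether replicates were separate cultures, so p-values measure the spread between these samples, which may be technical.

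NK homeobox genes encode transcription factors that bind DNA through a homeodomain and that set cell identity along the body axis and in organs. In the ventral neural tube, Sonic hedgehog from the notochord and floor plate acts through GLI factors to switch on Nkx2-2, Nkx2-9, Nkx6-1 and Nkx6-2 in progenitors. Their products repress dorsal and intermediate homeodomain genes, in part through TLE (Groucho) corepressors, and so divide the progenitors into domains that give motor neurons and ventral interneurons. Nkx2-3 is known from the pharynx, gut mesoderm and spleen, and Nkx2-1 from the ventral forebrain, lung and thyroid.

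The members fall into NK2 and NK6 classes by the sequence of the homeobox, the coding segment of 180 bases for the homeodomain. It was read from the longest coding transcript of each gene in GENCODE M21. Over the whole homeobox, Nkx2-2 and Nkx2-9 shared 82.8% of bases and Nkx6-1 and Nkx6-2 shared 79.4%. Nkx2-3 shared 75.0% with Nkx2-2 and 73.3% with Nkx2-9. Between the measured NK2 and NK6 genes the identity ran from 51.1% to 55.6%.

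Reads of 50 bases could largely be told apart between these genes. Of 1213 distinct 50-base stretches of the Nkx2-9 transcript, 8 (0.660%) also occur in transcripts of other genes on the same strand. None of those of Nkx2-2, Nkx2-3, Nkx6-1 or Nkx6-2 do, in the GENCODE M21 transcripts searched. On the opposite strand, 231 of 2071 stretches of Nkx2-2 (11.2%) lie in Nkx2-2os, its antisense RNA, so an Nkx2-2 value could include Nkx2-2os reads if strand was not used in counting. The labels call the reads stranded but name a library kit that, as sold, does not mark strand, and the sources used here do not say how strand was treated in counting. No other gene had a row identical to a member's on either day.

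The first comparison asks how the Nkx genes stand while GLI1 is induced. Gli1 itself (Entrez 14632) stood at a D5 log2 fold change of 4.79 in the authors' deposited table (adjusted p = 1.12e-81, implied SE 0.25). How much of it is transgene or endogenous RNA is not known here. All 5 measured members were higher in induced cells at D5, at an adjusted p under 0.05 in the authors' deposited table. Over all genes of that table, 4.44% were called (2.1% lower, 2.34% higher). At an unadjusted p under 0.05 the shares were 10.7% in all and 4.83% higher. The rule by which genes of low values were left out of the table is unknown here. A gene nearly silent in controls may have passed through its induced samples alone, so the count of 5 of 5 describes these rows and supports nothing further.

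Nkx2-9 (Entrez 18094), a marker of the most ventral progenitors beside the floor plate, had the 2nd largest log2 fold change of all genes at D5. In the authors' deposited table it stood at 5.72 (adjusted p = 1.33e-170), and the standard error (SE) implied by that value and its p, derived here, was 0.20. That is a 52.8-fold difference. Values per library were not used here, so levels on either side were derived from the average log2 CPM (counts scaled to a common library size) and the fold change. For Nkx2-9 these implied levels were 0.818 CPM in D5 controls and 43.2 CPM in induced cells, or 3.03 and 160 CPM if the average is read as a mean of logs. Its average over both groups was above that of 49.1% of all genes, and nearly all of that average came from the induced cells.

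Nkx2-2 (Entrez 18088), which defines the p3 progenitors that give V3 interneurons, followed with the 3rd largest log2 fold change. It stood at 5.38 in the authors' deposited table for D5 (adjusted p = 1.05e-50, implied SE 0.35), a 41.8-fold difference. Its implied levels were 0.176 CPM in controls and 7.36 CPM in induced cells, or 0.583 and 24.3 CPM with the other reading. The 95% intervals from the implied SEs overlap, at 4.70 to 6.07 for Nkx2-2 and 5.32 to 6.12 for Nkx2-9, so the order of this pair is not resolved.

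The NK6 genes, which span a wider ventral domain and help specify motor neurons, moved by smaller factors than Nkx2-9 and Nkx2-2. Nkx6-2 (Entrez 14912) had a log2 fold change of 2.68 at D5 in the authors' deposited table (adjusted p = 6.40e-52, implied SE 0.17). Its implied level went from 4.41 CPM in controls to 28.3 CPM in induced cells, a 6.43-fold difference. Nkx6-1 (Entrez 18096) stood at 2.28 in the authors' deposited table (adjusted p = 1.25e-24, implied SE 0.21). Its implied levels were 3.27 CPM in controls and 15.9 CPM in induced cells. The intervals of the NK6 pair overlap, at 2.35 to 3.02 for Nkx6-2 and 1.87 to 2.70 for Nkx6-1. Neither interval reaches that of Nkx2-2 or Nkx2-9.

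Nkx2-3 (Entrez 18089) had the smallest rise of the members. It stood at 1.27 at D5 in the authors' deposited table (adjusted p = 0.00739, implied SE 0.34), with implied levels of 0.719 CPM in controls and 1.73 CPM in induced cells. Its interval of 0.60 to 1.93 overlaps that of Nkx6-1 at the edge. The call was lost with Holm's adjustment of the p-values in the authors' deposited table (adjusted p = 1). Its average log2 CPM of 0.29 in the authors' deposited table was above 6.93% of the genes, so few reads lie behind it.

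**Figure D1:**
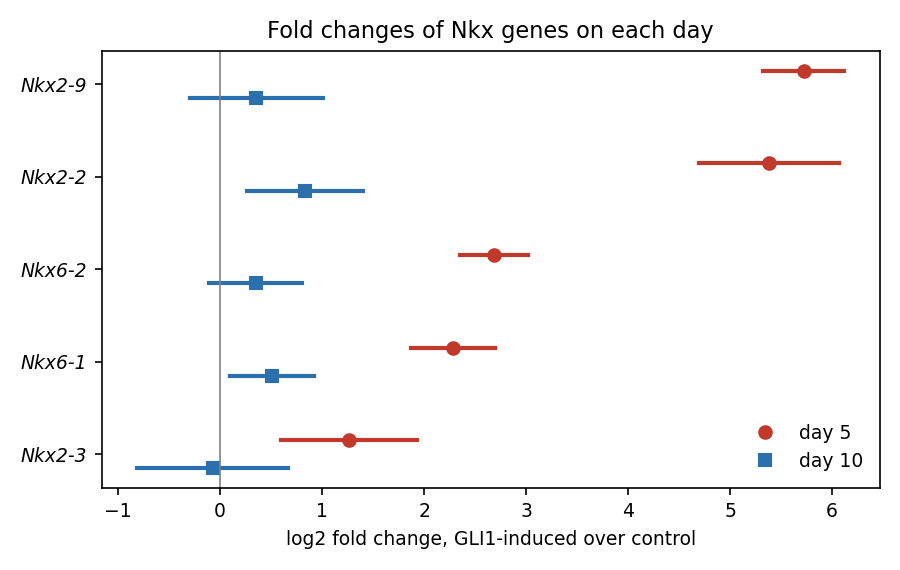
Log2 fold changes of the 5 measured members at D5 (red circles) and D10 (blue squares), from the authors' tables. Bars are 95% intervals from the implied SEs, and the D5 points run from 1.27 to 5.72 while the D10 points lie between -0.08 and 0.83.

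Levels of different genes were compared per kilobase of the longest coding transcript, as implied CPM per kb, with no spread known. In D5 controls the order was Nkx6-2 at 3.39, Nkx6-1 at 1.04, Nkx2-9 at 0.647, Nkx2-3 at 0.340 and Nkx2-2 at 0.0831. In D5 induced cells Nkx2-9 led at 34.2, followed by Nkx6-2 at 21.8, Nkx6-1 at 5.07, Nkx2-2 at 3.47 and Nkx2-3 at 0.819. The leading gene was thus Nkx6-2 in controls and Nkx2-9 in induced cells, under either reading of the average. Places further down depend on that reading: as a mean of logs it puts Nkx2-9 above Nkx6-1 in controls and Nkx2-2 above Nkx6-1 in induced cells.

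**Figure D2:**
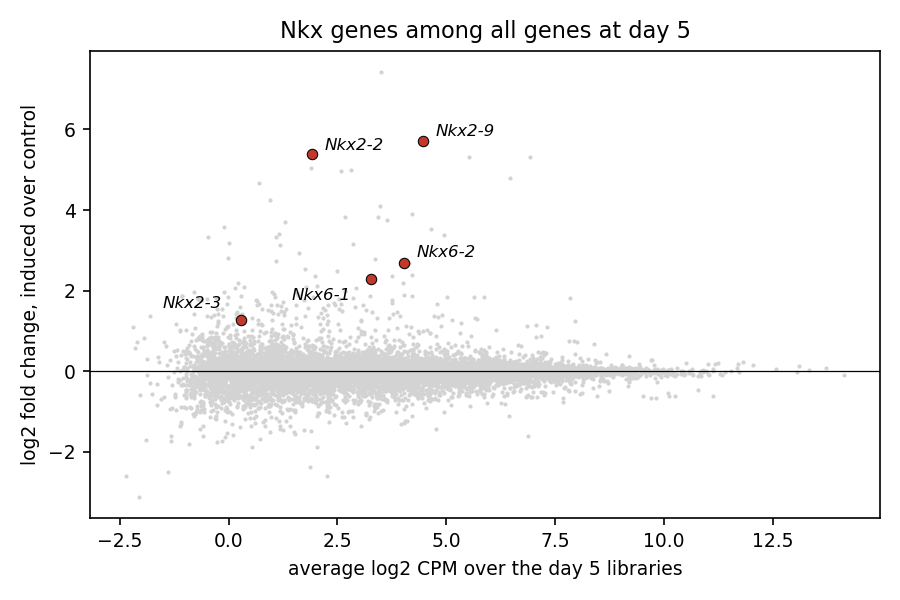
Each grey point is 1 of 15108 genes at D5, placed by its average log2 CPM (x axis) and its log2 fold change, induced over control (y axis), from the authors' table. The 5 measured members (red) lie above 0, with Nkx2-9 and Nkx2-2 near the top edge and Nkx2-3 among genes of low average.

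The second comparison asks what remained of these differences 5 days after washout. At D10, 0 of the 5 measured members passed in the authors' deposited table, where 0.0826% of all genes did. At an unadjusted p under 0.05 there were 2 of 5, both higher, against 1.53% of all genes in either direction and 0.883% higher. Nkx2-2 stood at 0.83 in the authors' deposited table (unadjusted p = 0.00439, adjusted p = 1, implied SE 0.29), the 53rd smallest p of 15744 genes. Nkx6-1 stood at 0.51 (unadjusted p = 0.0163, adjusted p = 1, implied SE 0.21) in the authors' deposited table, the 91st smallest.

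The other 3 measured members lay nearer to 0 at D10. Nkx2-9 had a log2 fold change of 0.36 and Nkx6-2 of 0.35 in the authors' deposited table, with unadjusted p values of 0.288 and 0.134. Nkx2-3 stood at -0.08 in the authors' deposited table (unadjusted p = 0.843). The intervals ran from -0.30 to 1.01 for Nkx2-9, from -0.11 to 0.81 for Nkx6-2 and from -0.82 to 0.67 for Nkx2-3, so differences of those sizes in either direction were not resolved. The p-values at D10 lean high, with a median of 0.684 over all genes. When z was rescaled within bins of expression, Nkx6-1 alone of the members passed at D10, with an adjusted p of 0.0195. That scaling called 119 of the 15744 genes (0.756%), against 13 with the p-values as deposited.

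The third comparison asks whether the response of each member differed between the days. It was tested with the implied SEs, which come from the p-values in the authors' deposited tables, with adjustment over the 14792 genes in both tables, of which 1.24% were called. The log2 fold change was closer to 0 at D10 in 4 of the 5 members by that test. Derived from the authors' deposited tables, the difference, D10 minus D5, was -5.37 for Nkx2-9 (adjusted p = 3.24e-39, SE 0.39) and -4.55 for Nkx2-2 (adjusted p = 1.67e-20, SE 0.45). From the authors' deposited tables it was -2.34 for Nkx6-2 (adjusted p = 4.50e-13, SE 0.29) and -1.78 for Nkx6-1 (adjusted p = 8.14e-07, SE 0.30). Nkx2-3 missed the threshold at -1.34 (adjusted p = 0.346), with an interval of -2.34 to -0.34 derived from the authors' deposited tables. With a t reference of 6 and 4 degrees of freedom for the SE implied by the authors' deposited tables, Nkx6-2 (adjusted p = 0.0756) and Nkx6-1 (0.0643) were no longer called. That reference called 0.128% of the genes.

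The way in which the arms drew together differed among the members, as far as the implied levels show it. The tables were normalized separately, so levels set across days are a description with no test. Nkx2-9 was 32.6-fold lower in induced cells at D10 than at D5, at 1.32 CPM against 43.2, and its control level was 1.03 CPM at D10. Both arms of Nkx2-9 at D10 thus lay near the D5 control level, or below it if the average is read as a mean of logs (3.03 CPM in D5 controls). The NK6 genes had a higher control level at D10 than at D5 under either reading. Nkx6-2 controls went from 4.41 CPM at D5 to 11.0 CPM at D10 (2.5-fold) and induced cells from 28.3 to 14.1 CPM. Nkx6-1 controls went from 3.27 to 8.60 CPM (2.63-fold) and induced cells from 15.9 to 12.2 CPM, with the larger change in the controls. Nkx2-2 controls had the largest rise of the 5 as a ratio, from 0.176 to 1.34 CPM (7.61-fold), and induced cells went from 7.36 to 2.38 CPM (3.09-fold lower). The D5 control level of Nkx2-2 is derived and very low, so the 7.61-fold ratio is uncertain. Nkx2-3 controls went from 0.719 to 1.22 CPM and induced cells from 1.73 to 1.16 CPM. Which arm moved more depends on the reading of the average for 3 of the 5 genes. Read as a mean of logs, Nkx2-2 controls were 2.40-fold higher at D10 and induced cells 9.80-fold lower. For Nkx6-2 that reading gives 1.72-fold and 2.93-fold, and for Nkx2-3 1.54-fold and 1.64-fold. For Nkx2-9 it gives induced cells 120-fold lower at D10, and for Nkx6-1 the controls still had the larger change, 2.01-fold against 1.70-fold.

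In bulk RNA, fewer cells with a transcript and less transcript per cell cannot be told apart. Per kb, Nkx6-2 led at D10 in both arms, at 8.50 in controls and 10.8 in induced cells, followed by Nkx6-1 at 2.74 and 3.90. Nkx2-9, Nkx2-2 and Nkx2-3 lay between 0.547 and 1.12 implied CPM per kb in both arms at D10. The order of those 3 genes cannot be resolved without values per library.

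**Figure D3:**
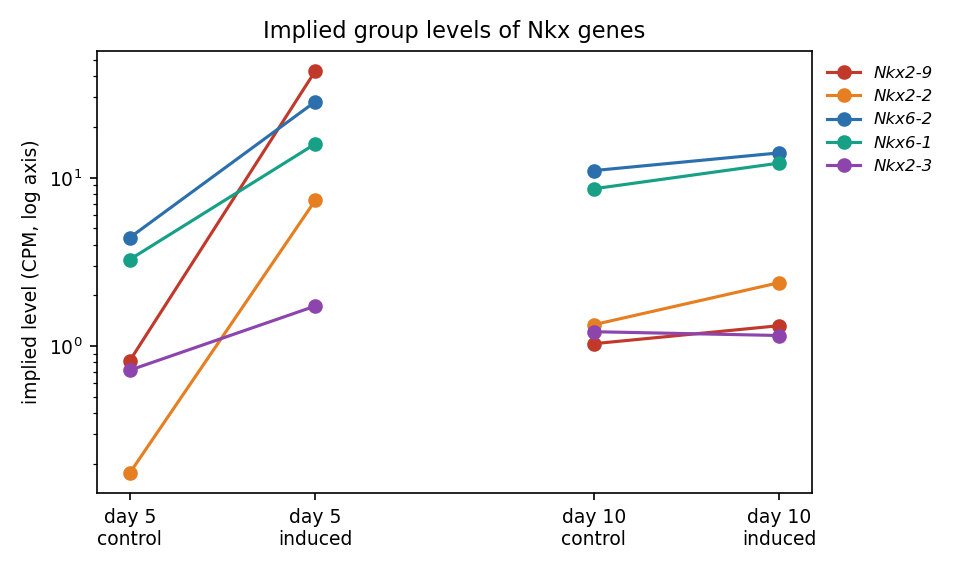
Implied CPM (log axis) of the 5 measured members in the 4 groups, derived from the average and the fold change of each day's table, with no error known. Nkx2-9 spans 0.818 to 43.2 CPM at D5 and 1.03 to 1.32 CPM at D10, while the NK6 genes lie higher in D10 than in D5 controls.

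Of 8 further Nkx entries looked for, 0 had a row at D5 and 2 at D10. Nkx1-2 at 0.57 and Nkx1-1 at 0.10 had rows at D10 and did not pass in the authors' deposited table (adjusted p = 1 for each).

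Promoter sequences were read for all 6 members from the RefSeq table (GRCm38.p6), as the 250 bases before the gene's start. Those of the pair with the largest rises and of the single member with a near match to the GLI motif are shown, 5′ to 3′ on the gene's strand. Nkx2-9 lies at chr12:56613285-56613534 on the minus strand, Nkx2-2 at chr2:147186403-147186652 on the minus strand and Nkx2-3 at chr19:43612075-43612324 on the plus strand. Capitals mark a stretch within 1 mismatch of GACCACCCA, the motif that GLI factors bind, searched on both strands.
Nkx2-9: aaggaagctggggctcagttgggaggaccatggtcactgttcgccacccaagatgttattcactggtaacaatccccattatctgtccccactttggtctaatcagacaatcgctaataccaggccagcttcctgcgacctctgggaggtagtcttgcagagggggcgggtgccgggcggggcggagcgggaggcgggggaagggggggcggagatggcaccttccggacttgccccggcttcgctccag
Nkx2-2: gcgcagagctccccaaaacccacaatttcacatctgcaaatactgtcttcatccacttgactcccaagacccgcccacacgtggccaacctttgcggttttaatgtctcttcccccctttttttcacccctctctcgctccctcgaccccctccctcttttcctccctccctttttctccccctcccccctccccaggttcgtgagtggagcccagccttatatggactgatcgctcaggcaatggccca
Nkx2-3: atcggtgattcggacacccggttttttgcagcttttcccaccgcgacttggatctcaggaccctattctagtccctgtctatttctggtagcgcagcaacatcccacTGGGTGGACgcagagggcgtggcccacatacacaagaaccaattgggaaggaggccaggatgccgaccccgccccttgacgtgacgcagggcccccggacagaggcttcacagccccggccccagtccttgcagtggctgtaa
An exact match occurs in 0.225% of 32851 such promoter windows of RefSeq and a match with up to 1 mismatch in 5.79%. None of the 6 windows held an exact match. Nkx2-3 held a near match that starts 143 bases before the gene's start, on the opposite strand. Its site, read on the motif's strand, is GTCCACCCA, with the substitution A2T (motif base first, positions from 1 at the motif's 5′ end). The capitals are absent from Nkx2-9 and Nkx2-2, which says that these letters are not in these windows.

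The nearest protein-coding neighbours in the RefSeq table that have a row on at least 1 day were read to see whether the differences extended along the chromosome. Taking 2 on either side of each of the 6 members gave 21 distinct genes, of which 19 had a D5 row. Among them 3 were called at D5 in the authors' deposited table, where 4.44% of all genes were. One of these was Nkx2-9 itself, the neighbour of Nkx2-1 on chromosome 12. The others lie on either side of Nkx2-2 on chromosome 2, at 847 kb for Foxa2 and 206 kb for Kiz. Foxa2, a floor plate and endoderm factor, stood at 1.37 and Kiz, a centrosome protein gene, at 0.59 in the authors' deposited table. Xrn2, the first gene with a row on the left of Nkx2-2 and nearer than both at 98.5 kb, did not pass, at -0.0017 in the authors' deposited table. The neighbours of Nkx2-9 other than Nkx2-1 included Mbip at 0.21 and Slc25a21 at -0.02, neither called in the authors' deposited table. At D10, 0 of the 21 passed and 0 had an unadjusted p under 0.05. Over all genes those shares were 0.0826% and 1.53%, so these counts of 0 say little about the neighbours.

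Genes most like each member were named by distance in the plane of D5 and D10 log2 fold changes, over these 2 comparisons and 12633 candidate genes (12634 for Nkx2-3). Hhip, the Hedgehog-binding feedback protein, was nearest to both Nkx2-2 (distance 0.29) and Nkx2-9 (0.45). For Nkx2-2 it was followed by Nkx2-9 and Gli1, and for Nkx2-9 by Hprt, the locus that takes up the inducible cassette in A2Lox cells, and Nkx2-2. Hprt itself stood at 5.32 at D5 and -0.0092 at D10 in the authors' deposited tables. Nkx6-1 lay nearest to Sez6l (0.20), Col22a1 and Zdhhc14. Nkx6-2 lay nearest to Fgf14 (0.24), Sez6l and Cxcl12. Nkx2-3 lay nearest to Syt13, Serinc5 and Bmp7, in a denser region of the plane.

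The dorsal and intermediate homeodomain factors, which the NK factors oppose in the neural tube, leaned the other way at D5. Of the 9 with a row, 2 passed in the authors' deposited table, both lower. All 9 were below 0, at a median of -0.17 against 0.0015 over all genes. The lower pair were Pax3 at -1.12 and Msx2 at -0.76 in the authors' deposited table. The others, among them Pax7 at -0.38, Msx1 at -0.30, Dbx1 at -0.17 and Pax6 at -0.12, did not pass in the authors' deposited table. At D10, 0 of 10 passed, 3 had an unadjusted p under 0.05, and 5 lay on either side of 0 in the authors' deposited table. Over all genes, 4.44% were called at D5 and 0.0826% at D10. At an unadjusted p under 0.05 the shares were 10.7% and 1.53%. The counts of this list and of those below are to be read beside these shares.

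Most floor plate and ventral genes with a row were higher at D5, and some were at D10. The D5 table held 7 of them, and 5 passed in the authors' deposited test, all higher. The median of the 7 was 1.37, against 0.0015 over all genes. Those that passed were Shh, Spon1, Foxa1, Foxa2 and Ntn1. At D10, 3 of 8 passed, all higher, namely Shh at 1.41, Spon1 at 0.95 and Ntn1 at 0.93 in the authors' deposited table. The D10 median of the 8 was 0.15, against 0.0027 over all genes. Whether the Nkx genes and these genes differ in what was left at D10 was not tested.

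The TLE family includes corepressors through which NK factors repress, though not every listed member need act in that way. Of these genes, 5 of 6 had a row at D5 and 6 of 6 at D10. Of the 5 with a row at D5, 2 passed, both higher in the authors' deposited table, Tle5 at 0.55 and Tle1 at 0.34. Over all genes 4.44% were called at D5. Tle3 had the highest average of them, a log2 CPM of 7.30, and stood at 0.05 without passing in the authors' deposited table. At D10, 0 of 6 passed and 0 had an unadjusted p under 0.05 in the authors' deposited table, where 0.0826% and 1.53% of all genes did. Among 13 Hedgehog pathway and target genes with a row at D5, 9 passed in the authors' deposited table, 6 of them higher and 3 lower. Those higher were Gli1, Hhip, Ptch1, Hsd11b2, Foxf1 and Scube1, and the lower genes were the co-receptors Boc, Cdon and Gas1. At D10, 0 of 12 passed and 3 had an unadjusted p under 0.05. These were Gli1 at 0.57 (unadjusted p = 0.00161), Hhip at 0.55 (0.002) and Gas1 at -0.31 (0.0363) in the authors' deposited table.

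Neuron types born from Nkx domains had few rows at D5 and more at D10. For V2 interneurons, born dorsal to the motor neurons within the NK6 domain, 8 of 8 genes had a row at D10 and 0 passed in the authors' deposited table. All 8 lay above 0, with a median of 0.44 against 0.0027 over all genes. There were 4 with an unadjusted p under 0.05, among them Tal1 at 0.47 and Gata2 at 0.65 in the authors' deposited table. Over all genes that share was 1.53%, and 0.883% higher. The 7 neural progenitor markers also all lay above 0 at D10, at a median of 0.19, so this lean was not particular to V2 genes. At D5 the single V2 call was Lhx1, also of other interneurons, at -1.50 in the authors' deposited table. For motor neurons, 0 of 2 passed at D5 and 0 of 7 at D10, with a D10 median of 0.09. For V3 neurons, 0 of 1 passed at D5 and 1 of 3 at D10. Sim1 stood at 0.03 at D10 and did not pass, and Slc17a8, a vesicular glutamate transporter of several neuron types, was the single call at 1.17, in the authors' deposited table. For visceral motor neurons, 0 of 4 passed at D5 and 0 of 5 at D10. For serotonergic neurons, 0 of 1 passed at D5 and 0 of 3 at D10. Tph2 stood at 1.22 at D10 (unadjusted p = 0.00101), at a low average log2 CPM of 0.14, in the authors' deposited table. Slc6a4 at 0.12 and Lmx1b at -0.32 had unadjusted p values of 0.778 and 0.289 at D10 in the authors' deposited table. In the oligodendrocyte lineage, 1 of 4 was lower at D5, Pdgfra at -0.81, and 0 of 5 passed at D10 in the authors' deposited table.

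**Figure D4:**
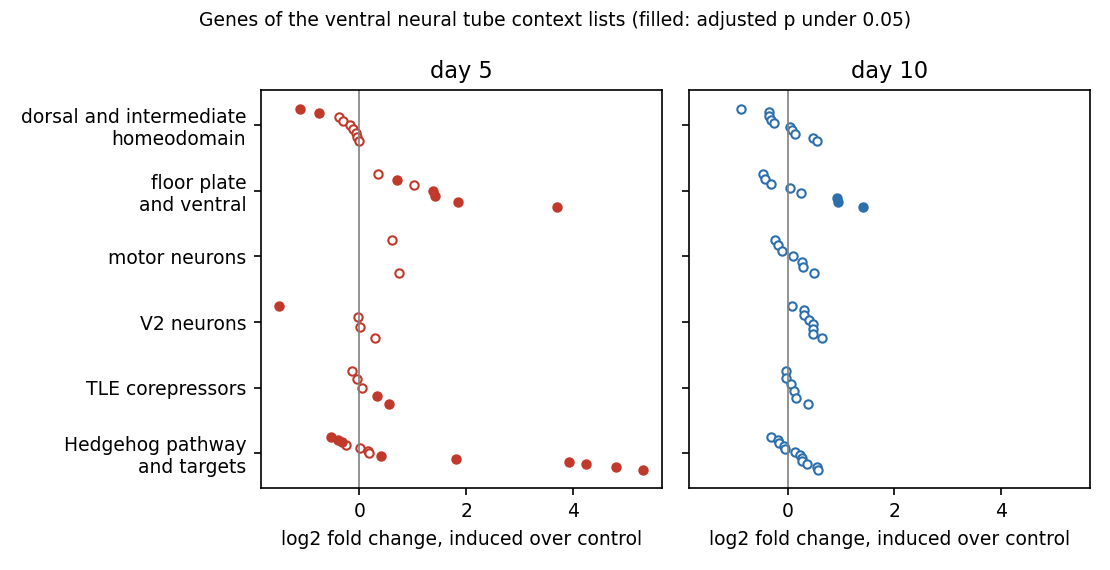
Log2 fold changes, induced over control (x axis), of genes in 6 context lists at D5 (left) and D10 (right), from the authors' tables, with filled points at an adjusted p under 0.05. At D5 calls lie below 0 among dorsal and intermediate factors and above 0 among floor plate genes, while at D10 the 8 V2 genes all lie above 0 with none called. The neural progenitor markers, not drawn, also all lie above 0 at D10.

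Markers of the labelled cells and of other tissues that use Nkx genes were read beside these values. All 7 neural progenitor markers had a row on either day, with average log2 CPM of 6.04 to 9.08 at D5, and 0 passed in the authors' deposited tables. At D10 all 7 lay above 0, at a median of 0.19. All 6 neuron markers had average log2 CPM of 6.95 to 9.11 at D10, and 0 passed there. At D5, 2 of the 6 were lower, Tubb3 at -0.41 and Stmn2 at -0.39 in the authors' deposited table. The cultures also held endoderm transcripts: 8 of 8 such genes had a row on either day, with average log2 CPM of 2.79 to 6.88 at D5 and 5.26 to 9.04 at D10. Of these 8, 1 passed at D5, Foxa2, which was higher, and 0 passed at D10 in the authors' deposited tables. At an unadjusted p under 0.05 there were 7 of the 8 at D5, 3 higher and 4 lower, and 0 at D10. Over all genes the shares were 10.7% at D5 and 1.53% at D10, so the D10 count of 0 says little. The 3 were Foxa2 at 1.37, Afp at 0.86 and Ttr at 0.54, and the 4 were Sox17 at -0.65, Hnf4a at -0.53, Cldn6 at -0.51 and Krt18 at -0.32, in the authors' deposited table.

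For the gut, pharyngeal and heart genes that go with Nkx2-3, 2 of 7 were higher at D5, Foxf1 at 4.24 and Foxf2 at 1.39, and 2 lower, Gata4 at -0.78 and Gata6 at -0.67, in the authors' deposited table. At D10, 0 of 9 passed. For pancreas genes, a tissue that uses Nkx2-2 and Nkx6-1, 2 of 8 had a row at D5, and Neurog3 was higher at 1.52 in the authors' deposited table. The other with a row, Neurod1 at 0.22, did not pass at D5, and 0 of 2 passed at D10 in the authors' deposited tables. For the ventral forebrain, 0 of 4 passed at D5 and 0 of 7 at D10, and for lung and thyroid endoderm 0 of 1 and 0 of 2. The part of endoderm or other cells in the Nkx values was not tested.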

How the data were processed

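The members and the lists were chosen with earlier results of these data known. Per the file headers, the deposited tables give for each Entrez gene the authors' log fold change, average log CPM, p-value and FDR. The authors' average log CPM was checked to be on a log2 scale: its antilogs to base 2 total 1001540 (D5) and 1001340 (D10). The deposited fold changes were read as log2 as well. For the aligner, counting, test and build, nothing is stated in the sources used here, and the depth per sample is unknown. Libraries were single-end and described as stranded, per the labels' protocols. Each D5 and D10 comparison uses the authors' test, with genes at an adjusted p under 0.05 called.

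Symbols came from the RefSeq table (GRCm38.p6), which matched 94.6% of identifiers on either day. The implied SE is the size of the log2 fold change over the size of the normal z of its p-value. It is no replicate SD. The difference between days was tested two-sided with a normal reference and Benjamini-Hochberg adjustment over 14792 genes, and genes without a finite implied SE were entered as no difference. Implied levels assume that the authors' average is the log of the mean CPM and that groups are of equal size. All 6 members are named, with 2 other Nkx genes that had a row, every called gene of each list, 2 neighbours per side, and the 3 most alike genes per called member. Some items are not reported here and were left out of the lists and counts of lists. Uncalled list genes given as examples were chosen after their values were seen. Procedures were tested on simulated data. Python 3.11.15, pandas 2.3.3 and SciPy 1.17.1 were used. Alternatives covered thresholds, Holm's adjustment, a minimum of 2-fold, a minimum average log2 CPM of 1, rescaled z in bins of about 500 genes, a t reference and another reading of the average.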

Additional observations from a re-analysis of the deposited data

Results flagged for a closer look

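The response of 4 members differed between the days by the test of the difference itself. The difference of log2 fold change, D10 minus D5, was -5.37 for Nkx2-9, -4.55 for Nkx2-2, -2.34 for Nkx6-2 and -1.78 for Nkx6-1. Day, cell stage and the presence of doxycycline changed together between these comparisons and cannot be told apart.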

How the results depend on the processing

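No paired analysis was possible because the deposited tables hold comparisons and no values per library, and for the same reason no replicate could be left out in turn. All 5 D5 members stayed called at adjusted p thresholds of 0.01 and 0.1, with a 2-fold minimum and with rescaled z. Under Holm's adjustment 4 were called, without Nkx2-3, and 4 above a minimum average log2 CPM of 1, which leaves Nkx2-3 out. At D10 the count of 0 became 1 with rescaled z (Nkx6-1), and stayed 0 in the other alternatives. The 4 members that differed between days became 2 with a t reference (Nkx2-9 and Nkx2-2) and 2 with that minimum on both days, where Nkx2-2, Nkx2-9 and Nkx2-3 are left out. No alternative turned a direction. Reading the average as a mean of log2 CPM moved 8 implied levels, all at D5. Nkx2-9 then stood at 3.03 CPM in controls and 160 CPM in induced cells, and Nkx2-2 at 0.583 and 24.3 CPM. The averages behind Nkx2-3 on both days, and behind Nkx2-9 and Nkx2-2 at D10, are low, which limits what could be detected for them.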
